A study of Mus musculus with 8 samples.

Results

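The 10 genes described here encode plasma membrane amino acid transporters, measured in activated B cells with and without Prmt5, an arginine methyltransferase. They are Slc3a2, Slc7a5, Slc7a6, Slc7a11, Slc7a1, Slc1a5, Slc1a4, Slc38a1, Slc38a2 and Slc43a1, found by symbol as 10 of 39017 genes in the table of normalized read counts. Splenic B cells of C57BL6/J mice were grown on irradiated 40LB cells, a fibroblast line that presents CD40L and BAFF, with IL-4 at 1 ng/mL, which gives germinal center-like cells called iGBs. Of the 8 libraries, 4 came from Prmt5 F/F Cγ1-cre mice (Prmt5-null) and 4 from Cγ1-cre mice with intact Prmt5 (control), 1 mouse each, and RNA was taken at day 4, after elutriation to take out feeder cells. The study's reporting summary gives its mice as 2 to 4 months old and of both sexes, not separately for the mice of these libraries. Both genotypes carry Cγ1-cre, which acts once B cells are activated, and each culture was read as a whole population. Libraries carry the names of the labels, PRMT5 or CTRL and the number of the mouse.

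Amino acids are charged molecules at the pH of the body and cross the plasma membrane through carriers. Slc3a2 encodes CD98hc, a heavy chain that brings light chains of the Slc7 family to the cell surface. With Slc7a5 (LAT1) it exchanges large neutral amino acids such as leucine, with Slc7a6 (y+LAT2) cationic against neutral ones, and with Slc7a11 (xCT) cystine against glutamate. Slc7a1 (CAT1) carries arginine and lysine without a heavy chain, Slc1a5 (ASCT2) and Slc1a4 (ASCT1) are sodium-dependent exchangers of small neutral amino acids, with glutamine a substrate of Slc1a5, Slc38a1 (SNAT1) and Slc38a2 (SNAT2) take up glutamine and alanine together with sodium, and Slc43a1 (LAT3) is a facilitator of large neutral amino acids that needs no partner. Activated lymphocytes are known to raise several of these carriers as they grow, and leucine, arginine and glutamine bear on the kinase mTORC1.

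Libraries held between 36731721 and 50366174 reads assigned to genes, and all transporters but Slc7a11 had a mean of at least 345 normalized counts in both genotypes. Prmt5 itself had a mean of 1538 ± 436 normalized counts in Prmt5-null libraries and 11774 ± 908 in controls (SD, n = 4 each), with a log2 fold change of -2.98 (limma adjusted p = 6.14e-06). The B cell gene Cd79a and the others of its list summed to 109520 to 131079 normalized counts in Prmt5-null and 118717 to 132337 in control libraries. Genes of fibroblasts, the lineage of the feeder cells, summed to 8406 to 14735 in Prmt5-null and 5594 to 9544 in control libraries. All 16 tested had a positive log2 fold change (median 0.66, range 0.08 to 1.02). Of these genes 4 passed the adjusted p, where 6.51% of all genes passed as higher. The part of the fibroblast genes in the results below was not tested.

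**Figure D1:**
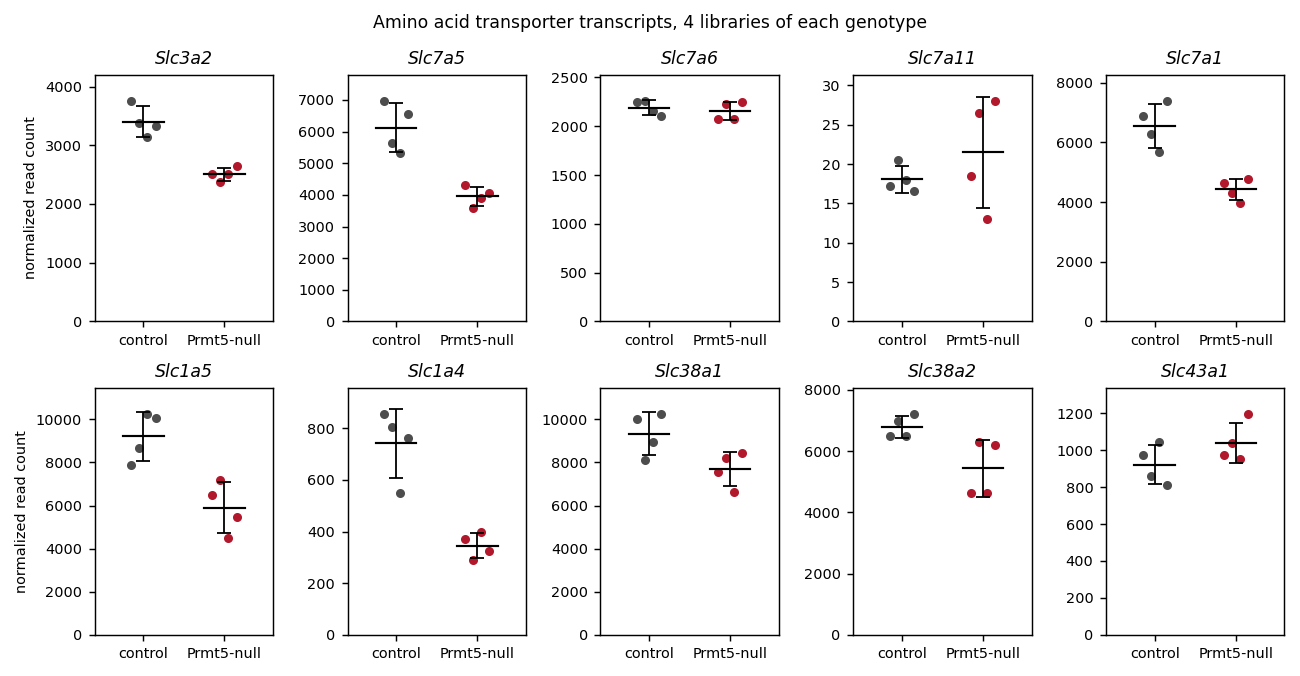
Normalized read counts (y axis, linear from 0, a separate scale for each gene) of the 10 transporter genes in 4 control and 4 Prmt5-null libraries. Points are libraries, bars the mean and SD, and the 6 genes with no overlap between the genotypes (Slc3a2, Slc7a5, Slc7a1, Slc1a5, Slc1a4 and Slc38a2) were all lower in Prmt5-null cells.

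Transcripts of 5 of the 10 transporters fell in Prmt5-null iGBs and none rose. Slc1a4, Slc1a5 and Slc7a5 fell by at least 1.5-fold at an adjusted p below 0.05, which counts as called here, and Slc7a1 and Slc3a2 passed the adjusted p with smaller changes. Over all 16250 genes tested, 6.48% were called in either direction, 2.99% as lower and 3.49% as higher, against 3 of 10 transporters called as lower. At the adjusted p alone the shares over all genes were 13.8% in either direction, 7.33% lower and 6.51% higher, against 5 of 10 transporters lower. The median log2 fold change was -0.39 over the 10 transporters and 0.002 over all genes tested, and 8 of the 10 had a negative value where 49.6% of all genes did. Every library of Prmt5-null cells was below every control library for 6 of the 10, which was so for 10.2% of all genes tested. The 10 genes were listed with earlier results of these data known, so these comparisons are descriptive.

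The test was limma on normalized counts, log2-transformed after adding 1. Adjusted p follows Benjamini and Hochberg over all genes tested. Fold changes are on that scale throughout, Prmt5-null minus control, with 95% intervals of the same fit. Values are relative to all other transcripts of a library, and fewer expressing cells cannot be told apart from less RNA per cell. The libraries came from 2 experiments, but no label ties a library to its experiment, so the experiment could not be a term of the fit. With it as a block, the same 3 genes were called in each of the 18 ways to place 2 libraries of each genotype in each experiment.

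**Figure D2:**
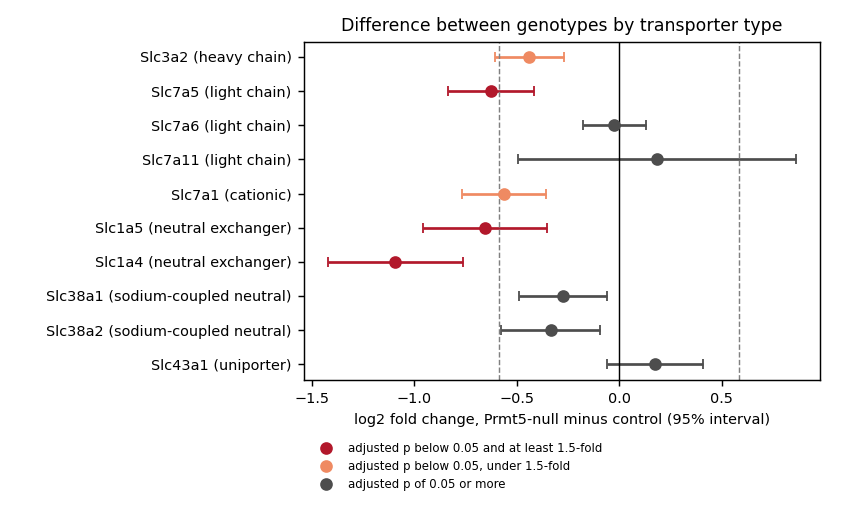
Log2 fold change of each transporter gene, Prmt5-null minus control (x axis), with its 95% interval, ordered by transporter type. Dashed lines mark 1.5-fold, and the intervals of 7 genes, the 5 that passed the adjusted p plus Slc38a1 and Slc38a2, lie below 0.

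The heavy chain Slc3a2 (GRCm38 chromosome 19, 8706882 to 8723369, minus strand) fell. It had 2511, 2367, 2506 and 2639 normalized counts in Prmt5-null libraries PRMT5-10617, PRMT5-10618, PRMT5-10770 and PRMT5-10771, and 3754, 3387, 3132 and 3335 in control libraries CTRL-10650 and CTRL-10370, then CTRL-10596 and CTRL-10597. The same order of libraries is kept for the other genes. The lowest control library was thus above the highest Prmt5-null library. The log2 fold change was -0.44 (95% interval -0.61 to -0.27, limma adjusted p = 0.00334).

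Of the 3 light chain genes, 1 fell. Slc7a5 (chromosome 8, 121881150 to 121907694, minus strand), the leucine carrier, had 4301, 3577, 3885 and 4052 counts in the Prmt5-null libraries and 6965, 5649, 5330 and 6566 in the controls. The groups did not overlap, and the log2 fold change was -0.63 (-0.84 to -0.42, limma adjusted p = 0.00151), so that the level fell by 35.2%. Without Prmt5-null library PRMT5-10618 it was -0.58 and without control library CTRL-10650 it was -0.56, both under 1.5-fold with adjusted p of 0.00346 and 0.00601. Slc7a6 (chromosome 8, 106168857 to 106198706, plus strand) lay between 2074 and 2246 counts in Prmt5-null and between 2109 and 2258 in control libraries. These ranges coincide almost wholly, and the interval of the log2 fold change was narrow, -0.18 to 0.13 around -0.02 (limma adjusted p = 0.854). The 2 light chains that share the heavy chain and are abundant therefore had intervals that do not meet, from -0.84 to -0.42 and from -0.18 to 0.13, although the difference between them was not tested.

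Slc7a11 (chromosome 3, 49892526 to 50443614, minus strand), the cystine carrier, was the scarcest of the 10. It had 18.5, 26.5, 13.0 and 28.0 counts in the Prmt5-null libraries and 17.2, 20.5, 17.9 and 16.6 in the controls. The control libraries lay within the range of the Prmt5-null libraries, whose spread was wide, and the interval of the log2 fold change ran from -0.49 to 0.86 around 0.19 (limma adjusted p = 0.740). A change of 1.5-fold in the upward direction is inside this interval and was not detectable at this depth.

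Slc7a1 (chromosome 5, 148327410 to 148399904, minus strand), the arginine and lysine carrier, fell. Its counts were 4640, 4322, 3975 and 4772 in the Prmt5-null libraries and 6872, 6282, 5694 and 7390 in the controls, with no overlap. The log2 fold change of -0.56 (-0.77 to -0.36, limma adjusted p = 0.00230) was just short of 1.5-fold, and the level fell by 32.3%. Leaving out Prmt5-null library PRMT5-10617 or PRMT5-10771 or control library CTRL-10596 took it to between -0.59 and -0.63, past 1.5-fold.

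Both neutral exchangers fell, and Slc1a4 had the lowest log2 fold change of the 10. Slc1a4 (chromosome 11, 20302180 to 20332713, minus strand) had 371, 289, 397 and 324 counts in the Prmt5-null libraries and 854, 805, 549 and 761 in the controls. The Prmt5-null libraries were all below the lowest control, and the log2 fold change was -1.09 (-1.42 to -0.76, limma adjusted p = 7.75e-04), so that the level fell by 53.1%. Slc1a5 (chromosome 7, 16781340 to 16798274, plus strand), the glutamine exchanger, had 6486, 7206, 4486 and 5447 counts in the Prmt5-null libraries and 7893, 8651, 10234 and 10062 in the controls. The groups did not overlap but the Prmt5-null libraries were spread over a coefficient of variation of 20.2%, and the log2 fold change was -0.66 (-0.96 to -0.35, limma adjusted p = 0.00861). Without Prmt5-null library PRMT5-10770, the lowest, it was -0.53 (adjusted p = 0.00913), under 1.5-fold.

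The sodium-coupled carriers Slc38a1 and Slc38a2 did not pass the adjusted p. Slc38a1 (chromosome 15, 96571418 to 96642913, minus strand) had 7552, 8187, 6635 and 8424 counts in the Prmt5-null libraries and 10028, 8099, 8942 and 10236 in the controls, so that control library CTRL-10370 lay among the Prmt5-null libraries. Its log2 fold change was -0.28 (-0.49 to -0.06, limma adjusted p = 0.0858). Slc38a2 (chromosome 15, 96687392 to 96699730, minus strand) had 4644, 6293, 4627 and 6212 counts in the Prmt5-null libraries and 6498, 6994, 6487 and 7206 in the controls. There was no overlap, with the Prmt5-null libraries in a lower and a higher pair, and the log2 fold change was -0.33 (-0.58 to -0.09, limma adjusted p = 0.0657). It passed without Prmt5-null library PRMT5-10618 (-0.41, adjusted p = 0.0263), and both genes passed under some placements of the experiment block, with lowest adjusted p of 0.0216 for Slc38a1 and 0.0166 for Slc38a2.

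The facilitator Slc43a1 (chromosome 2, 84838850 to 84863594, plus strand) had 976, 1040, 953 and 1195 counts in the Prmt5-null libraries and 974, 859, 1044 and 814 in the controls. The groups overlapped, and the log2 fold change was 0.18 (-0.06 to 0.41, limma adjusted p = 0.307). Slc43a1 and Slc7a5 carry overlapping sets of large neutral amino acids, and their intervals do not meet, although the difference between them was not tested.

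Divided by the length of the exons of each gene, the order of the levels in control cells began with Slc1a5 at 2207 ± 270 and Slc7a5 at 1653 ± 207 normalized counts per kb (SD, n = 4). Slc3a2 followed at 964 ± 73.4 and Slc38a2 at 769 ± 40.9. Slc7a1 (569 ± 63.6), Slc38a1 (541 ± 57.8) and Slc7a6 (480 ± 15.9) came next, and the ranges of neighbours among these 3 overlapped. Slc1a4 (189 ± 34.2) and Slc43a1 (161 ± 18.4) also overlapped, and Slc7a11 was at 1.30 ± 0.12. In Prmt5-null cells Slc1a5 (1415 ± 285) and Slc7a5 (1066 ± 81.9) still led, but their ranges overlapped, Slc7a6 (472 ± 20.3) stood above Slc7a1 (384 ± 30.8) without overlap, and Slc43a1 (182 ± 19.1) stood above Slc1a4 (88.0 ± 12.3) without overlap. These lengths join the exons of all annotated transcripts, so genes with long alternative ends such as Slc38a1 are set lower than their main transcript would be.

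Ratios between transcripts of one library do not depend on how libraries were scaled. The log2 ratio of Slc7a5 to its heavy chain Slc3a2 was 0.78, 0.60, 0.63 and 0.62 in the Prmt5-null libraries and 0.89, 0.74, 0.77 and 0.98 in the controls. Prmt5-null library PRMT5-10617 lay among the controls, and the difference of -0.19 did not pass an exact two-sided permutation test (p = 0.0857, 0.171 adjusted over 4 ratios). The log2 ratio of Slc7a11 to Slc3a2 was -6.86 ± 0.49 in Prmt5-null and -7.48 ± 0.18 in control libraries (SD, n = 4 each), with the same p of 0.0857 in the exact permutation test. The ratio of Slc1a5 to Slc1a4 was 4.08 ± 0.47 against 3.64 ± 0.44 (exact permutation p = 0.257) and that of Slc38a1 to Slc38a2 was 0.51 ± 0.14 against 0.45 ± 0.17 (exact permutation p = 0.657). None of the 4 ratios passed, and 0.0286 is the smallest p that 4 against 4 libraries allow.

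**Figure D3:**
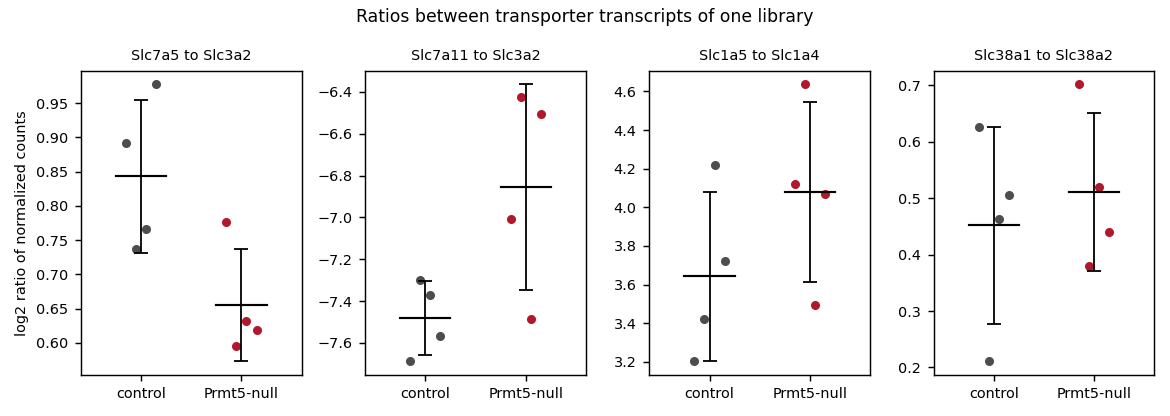
Log2 ratio of normalized counts (y axis, its own scale in each panel) between 2 transporter genes of the same library, in 4 control and 4 Prmt5-null libraries. Points are libraries and bars the mean and SD, and the groups overlap in each of the 4 panels.

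Windows of 250 bases before to 50 after the start site were at hand from RefSeq (GRCm38.p6) for 7 of the 10 genes, and not for Slc7a5, Slc1a5 and Slc38a1. Searched on both strands were 3 motifs, TGATGNAA, the composite element of ATF4 and C/EBP factors of the amino acid response, CACGTG, the E-box bound by Myc and Tfe3, and TGANNNNGC, the core of the antioxidant response element. The composite element was in 3.97% of all 32851 windows and in those of Slc1a4 and Slc7a11, the E-box in 7.15% and in that of Slc43a1, and the antioxidant core in 41.3% and in those of 6 of the 7 genes. The 3 windows below are shown from base -100 to base 20 of the start site, where no base is numbered 0, because they hold the composite element or the E-box, which are in capitals.
Slc1a4 (chr11:20332694-20332813, minus strand): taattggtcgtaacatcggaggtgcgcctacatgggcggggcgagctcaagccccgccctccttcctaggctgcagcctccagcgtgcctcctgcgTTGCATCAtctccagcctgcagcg
Slc7a11 (chr3:50443594-50443713, minus strand): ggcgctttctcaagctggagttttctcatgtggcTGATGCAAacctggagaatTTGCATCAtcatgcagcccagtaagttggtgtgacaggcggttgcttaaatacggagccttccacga
Slc43a1 (chr2:84840223-84840342, plus strand): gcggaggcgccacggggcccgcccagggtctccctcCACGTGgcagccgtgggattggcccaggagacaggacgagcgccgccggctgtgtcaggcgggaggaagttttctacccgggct

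The match in Slc1a4 spans the start site, from base -4 to base 4, and reads along the opposite strand. Slc7a11 holds a match on each strand, from -66 to -59 and from -47 to -40, and the latter shares bases with an antioxidant core. The Slc43a1 window lies inside the span given above for that gene, which begins at base 84838850. It therefore belongs to a start site further into the gene. The gene with the lowest log2 fold change and the scarcest gene, which did not pass the test, both hold the composite element in these windows. Slc3a2 and Slc7a1, which fell, hold neither that element nor the E-box in theirs. These matches are letters in a window and no measure of binding. Their relation to the log2 fold changes was not tested.

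In 5 tables of splicing events, which list for each gene events that the authors selected by their own test, Slc1a5 was the only transporter, with a retained intron. That is 1 of the 9 transporters with a mean above 50 normalized counts, where 11.4% of all such genes are listed. The intron is the seventh of 8 in the coding transcript, spans 71 bases (chr7:16795953-16796023, plus strand) and lies between coding exons, while the other 7 introns span 477 to 3709 bases. It is shown with 20 bases of exon on each side because it is the only sequence of these genes with a splicing readout, read from a GENCODE transcript that retains it. Capitals mark the last 3 bases of the exon with the first 6 of the intron, and the last 3 of the intron.
Slc1a5 (chr7:16795933-16796043): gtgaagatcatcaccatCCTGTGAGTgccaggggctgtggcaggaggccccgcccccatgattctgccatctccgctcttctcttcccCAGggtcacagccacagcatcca

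The authors' inclusion levels, the share of transcripts that keep the intron, were 0.525, 0.610, 0.511 and 0.523 in Prmt5-null cells and 0.286, 0.412, 0.503 and 0.480 in controls. The medians were 0.524 and 0.446, every Prmt5-null value was above every control value, and the nearest were 0.511 and 0.503. Behind them stood 1004 reads that keep and 527 that splice the intron in Prmt5-null cells, and 1099 and 926 in controls. Both kinds were fewer in Prmt5-null cells, with the wider gap for reads that splice the intron, and the gene count of Slc1a5 was lower there too. The lists do not name their libraries, and the genotype of each list is read from the study giving the difference as wild type against knockout, which the tables do not state. Since the event was selected on this difference, no test is given.

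**Figure D4:**
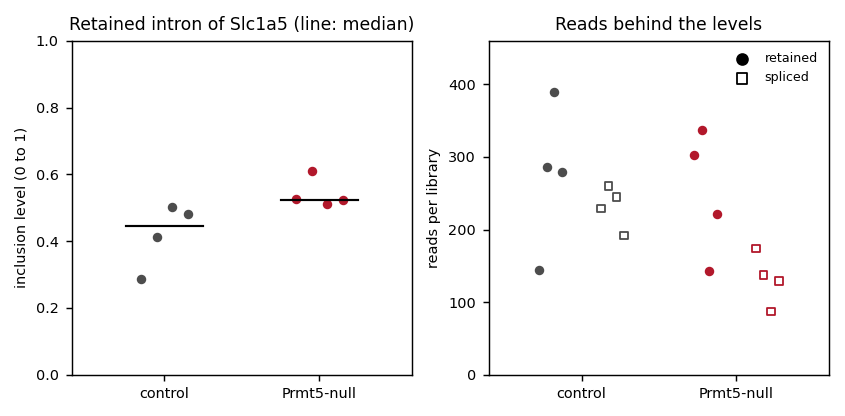
Left, the authors' inclusion level (y axis, 0 to 1) of the retained Slc1a5 intron for 4 control and 4 Prmt5-null libraries, with a line at the median (0.446 and 0.524). Right, the reads per library that keep the intron (filled circles) or splice it (open squares), which for spliced reads run from 192 to 260 in controls and from 87 to 174 in Prmt5-null cells.

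Other carriers at the plasma membrane were mostly too scarce to test. Of 30 listed, 10 were tested and 2 fell, with none higher, where 7.33% of all genes passed as lower. Slc16a10, a carrier of aromatic amino acids, had 96.3, 96.0, 69.2 and 77.5 counts in the Prmt5-null libraries and 210, 184, 244 and 213 in the controls. The log2 fold change was -1.32 (limma adjusted p = 4.16e-04), beside -1.09 for Slc1a4. Slc7a3, a cationic carrier akin to Slc7a1, had 81.5, 127, 104 and 135 counts against 256, 266, 198 and 141, the nearest libraries being close to each other. Its log2 fold change was -0.92 (adjusted p = 0.0186), and it no longer passed without Prmt5-null library PRMT5-10617 or control library CTRL-10650 or CTRL-10370 (adjusted p between 0.0528 and 0.0586).

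Carriers inside the cell passed the adjusted p in 9.09% (lysosomal and other) and 8.33% (mitochondrial) of those tested, beside 13.8% of all genes. Of 11 lysosomal and other intracellular carriers tested, 1 fell, Slc15a3, a lysosomal carrier of histidine and peptides, from 4430 to 2950 normalized counts (log2 fold change -0.59, limma adjusted p = 5.80e-04), and none rose. Of 12 mitochondrial carriers, Sfxn1, a serine carrier, fell by 0.34 on the log2 scale (adjusted p = 0.00769), under 1.5-fold, and none rose. The median log2 fold changes of these lists were 0.01 and -0.13.

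The next list holds 31 genes of the amino acid sensing pathway to mTORC1, with Mtor and Rptor of mTORC1 itself included. Of these, 1 passed lower and 3 higher, or 12.9%, close to the 13.8% of all genes. Sesn2, a leucine sensor that restrains mTORC1, had 6378, 6893, 5374 and 6763 counts in the Prmt5-null libraries and 4455, 3625, 3912 and 4096 in the controls. All Prmt5-null libraries were above all controls, and it was the one gene of the list called, with a log2 fold change of 0.66 (limma adjusted p = 0.00101). Gatsl3, an arginine sensor, had 0.69 with no overlap and missed the adjusted p (0.0511). Sesn1 (0.29), Sesn3 (-0.05) and Gatsl2 (0.19) of the same list had overlapping groups and did not pass (limma adjusted p between 0.0938 and 0.721). Depdc5 (0.48) and Nprl2 (0.52), subunits of the GATOR1 complex that restrains mTORC1, also passed at adjusted p of 0.00143 and 0.00646. Nprl3, another subunit of GATOR1, had 0.16 with overlapping groups and did not pass (limma adjusted p = 0.408). Lars, a leucyl-tRNA synthetase, fell by 0.33 (adjusted p = 0.00868). Depdc5, Nprl2, Nprl3, Lars and Gatsl3 fall outside the naming rule and were picked once their values were known. So were Sesn1, Sesn3, Gatsl2, Sfxn1, Atf4, Ddit3, Atf3, Atf5, Cebpb, Cebpg, Trib3 and Myc. The same holds for Gss, Gclc, Gclm, Txn1, Bckdha, Bckdhb, Dbt, Cd79a and Ebf1.

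Of 18 tested transcription factors and stress kinases known to act on transporter genes, 2 fell and none rose, or 11.1%, close to the 13.8% of all genes. Atf4, the factor of the amino acid response, had 10297, 11530, 10928 and 10209 counts in the Prmt5-null libraries and 13339, 16920, 14649 and 14886 in the controls. The groups did not overlap, and the log2 fold change was -0.47 (limma adjusted p = 0.00368). Ddit3, a stress factor downstream of it, fell by 0.54 (adjusted p = 0.00548), both under 1.5-fold. Atf3, Atf5, Cebpb, Cebpg and Trib3 of the same list did not pass (limma adjusted p between 0.179 and 0.902). Myc had overlapping groups and a log2 fold change of -0.18 (adjusted p = 0.380).

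Of 14 tested genes that use cystine or make glutathione, 3 passed lower and 1 higher, or 28.6% beside 13.8% of all genes. Chac1, which degrades glutathione, had 146, 137, 172 and 151 counts in the Prmt5-null libraries and 399, 365, 313 and 341 in the controls. No library of one genotype came near the other, and the log2 fold change was -1.22 (limma adjusted p = 1.77e-04). G6pdx, the first enzyme of the pentose phosphate pathway, fell by 0.66 (adjusted p = 0.00228), and Gss, glutathione synthetase, had a log2 fold change of 0.42 (adjusted p = 0.00925). Txn1 passed at -0.30 with overlapping groups (adjusted p = 0.0499). Gclc (-0.20) and Gclm (-0.01) of the same list did not pass (limma adjusted p = 0.132 and 0.973).

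Of 19 tested genes that use glutamine, branched-chain amino acids or arginine, 6 passed the adjusted p lower and 3 higher. That is 47.4%, beside 13.8% of all genes. By the 1.5-fold rule 4 were called lower and 1 higher, beside 2.99% and 3.49% of all genes. Gpt2, mitochondrial alanine aminotransferase, had 262, 286, 368 and 328 counts in the Prmt5-null libraries and 1119, 917, 695 and 776 in the controls, a log2 fold change of -1.48 (limma adjusted p = 1.66e-04). Bcat1, the cytosolic aminotransferase of leucine, isoleucine and valine, had 1117, 868, 1352 and 1071 counts against 3033, 2683, 2211 and 2589, a log2 fold change of -1.26 (adjusted p = 1.64e-04). Both genes were lower in every Prmt5-null library than in any control. Bckdk, the kinase that inhibits the branched-chain ketoacid dehydrogenase, fell by 0.64 (adjusted p = 6.84e-04), while Bckdha and Bckdhb, subunits of that dehydrogenase, had log2 fold changes of 0.49 and 0.60 (adjusted p = 0.00330 and 0.00280). Dbt, another subunit of that dehydrogenase, had -0.11 with overlapping groups and did not pass (limma adjusted p = 0.429). Asns, asparagine synthetase, fell by 0.64 (adjusted p = 0.0306), with overlapping libraries, and did not pass when any of 5 libraries was left out.

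**Figure D5:**
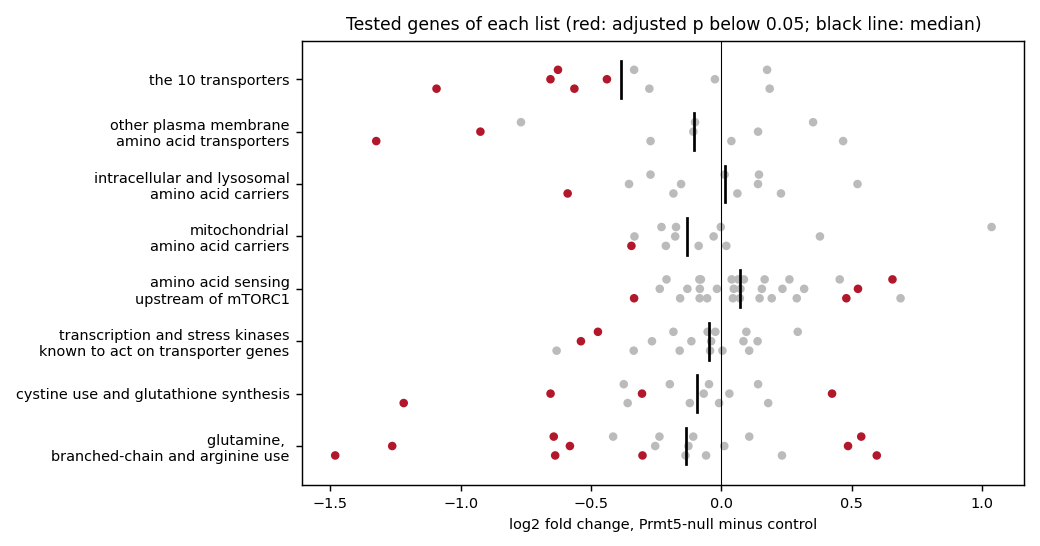
Log2 fold change, Prmt5-null minus control (x axis), of each tested gene in the list of the 10 transporters and 7 related lists. Each point is a gene, red at an adjusted p below 0.05, black lines are medians, and the median of the 10 transporters (-0.39) is the lowest of the 8. The lists were chosen with earlier results of these data known.

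Markers of cell type were set beside these values. Of 7 B cell symbols, Cd79a fell by 0.74 on the log2 scale (limma adjusted p = 3.27e-04). The symbol Ebf1 stands on 2 genes, of which ENSMUSG00000057098, with a mean of 3867 counts in Prmt5-null and 3630 in control libraries, had a log2 fold change of 0.09 (adjusted p = 0.642), while the scarcer ENSMUSG00000078561, with 108 and 155 counts, had -0.52 (adjusted p = 0.0338). None rose. Log2 fold changes of the 8 B cell genes were negative for 4 and positive for 4 (median -0.008). Of 6 germinal center genes 2 passed lower and 1 higher, and of 5 plasma cell genes 2 passed lower. Over all genes, 7.33% passed lower and 6.51% higher. Germinal center genes summed to 25944 to 26717 counts in Prmt5-null and 19644 to 24577 in control libraries, plasma cell genes to 31226 to 36339 and 32398 to 44341. These sums do not stand for each gene. Log2 fold changes were negative for 3 and positive for 3 germinal center genes (median 0.07). They were negative for 2 and positive for 3 plasma cell genes (median 0.16). T cell genes summed to 20.6 to 25.5 counts in Prmt5-null and 25.9 to 41.5 in control libraries, with 4 of 6 at 10 or fewer counts in every library, and myeloid genes to at most 119.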

How the data were processed

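RNA-seq of iGBs covered 4 Prmt5-null and 4 control libraries, named by mouse. The authors trimmed reads (Trimmomatic 0.32), aligned them with STAR 2.3.0e to mm10 (GRCm38), counted Ensembl genes with featureCounts 1.4.4 (strand setting not given in the sources used here) and deposited the counts as a normalized signal, divided by DESeq2 1.14.1 size factors. Every value was a whole multiple of 1 read (tolerance 0.01), so reads could be recovered. The authors' splicing files (rMATS) hold p-values and differences, which were not used, and lists of inclusion levels, deposited as other values without library names.

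Genotypes were compared in R 4.3.3 with limma 3.58.1 (trend) on log2(normalized count + 1) for 16250 genes with a mean of at least 10. A gene was called at adjusted p below 0.05 and 1.5-fold. edgeR 4.0.16 and DESeq2 1.42.0 on recovered reads, other pseudocounts, filters and scalings, an experiment block and left-out libraries were the alternatives. The 3 tools were tested on simulated data without an experiment effect, which does not show how they perform on these libraries. Ratios used exact permutation over libraries. Lengths and coordinates came from GENCODE M21. No exon of the 10 genes overlaps that of another gene.

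Members and lists were chosen with earlier results of these data known. The rule named all 10 members, Prmt5 and up to 4 called genes of each list with a mean above 50 and the largest change. Of some list symbols only an older name was found, and 1 marker gene is not reported here. Recovered reads of 12 pairs of libraries within a genotype had a chi-square per degree of freedom of 21.0 to 113. Sampling noise alone gives 1 for independent reads, and more if mates of a read pair were counted apart. None of the 12 pairs of libraries was counted as a repeat.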

Additional observations from a re-analysis of the deposited data

Results flagged for a closer look

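In 50 groups of 4 libraries, made of the named genes and the 4 ratios in each genotype, no library stood apart from the other 3 by Dixon's test, where chance would mark about 1 in 20.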

How the results depend on the processing

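Of the 10 transporters, 3 were called in the reported fit and under every other pseudocount, filter, scaling and tool tried, edgeR and DESeq2 included, and 2 to 4 with 1 library left out. At an adjusted p below 0.05 alone the count was 5, all lower. The log2 fold changes of Slc7a5, Slc3a2, Slc1a5, Slc7a1 and Slc1a4 stayed negative with adjusted p of at most 0.0343 in all alternatives. Over all genes, 1053 were called (486 lower), 2249 at the adjusted p alone (1191 lower), 637 at an adjusted p below 0.01 with 1.5-fold (296 lower), 792 to 1170 with 1 library left out, and 917 to 1243 over the 18 placements of the experiment block. The differences of log2 ratios with 1 library left out ran from -0.23 to -0.14 for Slc7a5 to Slc3a2, 0.48 to 0.83 for Slc7a11 to Slc3a2, 0.25 to 0.63 for Slc1a5 to Slc1a4 and -0.02 to 0.12 for Slc38a1 to Slc38a2. Only that of Slc7a11 to Slc3a2 passed, without Prmt5-null library PRMT5-10770 (exact permutation p = 0.0286). No paired analysis was possible because the genotypes share no replicate numbers. Depth limits Slc7a11 most.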
